A study of Homo sapiens with 23 samples.

Results

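ABC transporters are membrane or cytosolic proteins that share an ATP-binding cassette, and the human genes are sorted into subfamilies A to G by that domain. They were taken as every gene of the deposited count table whose symbol is ABC, a letter from A to G and a number, which gave 46 of 28395 genes. Subfamily A had 12 members, B 9, C 12, D 4, E 1, F 3 and G 5. RNA was sequenced from H929, MM1S, OPM2 and RPMI-8226, 4 established human lines of multiple myeloma, a cancer of plasma cells. Each line carried either an IRF4 sgRNA or a guide that the labels call EV. In both kinds of cell 48 hours of doxycycline switched on the guide. The 12 IRF4 libraries were 3 for each line, and the 11 EV libraries were 3 for H929, OPM2 and RPMI-8226 and 2 for MM1S (replicates 2 and 3). The sources used here give neither the IRF4 guide's sequence nor what EV stands for, and nothing said that replicates were separate cultures, so p-values measure the spread between these libraries, which may be technical.

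Most ABC proteins bind and split ATP to carry a substrate across a membrane. Subfamily A members move lipids, B holds the drug pump P-glycoprotein and carriers of mitochondria and lysosomes, C moves conjugated and anionic compounds, D serves peroxisomes and lysosomes, and G moves sterols and drugs. Members of E and F have the cassettes but no membrane domain and act on ribosomes. ABCB1, ABCC1 and ABCG2 are known for pumping cancer drugs out of cells, which includes drugs used against myeloma.

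IRF4, the targeted transcription factor of plasma cells, was lower with the IRF4 guide in each line (log2 fold changes of -1.58, -1.37, -0.66 and -1.10 in H929, MM1S, OPM2 and RPMI-8226). Its ranges overlapped in OPM2 (890 to 1331 CPM with the IRF4 guide against 1319 to 2031 CPM with EV). Library totals ran from 6907390 to 28486960 counts, of which the 46 genes took 0.115 to 0.201%. The 10 plasma cell markers summed to between 4088 and 18901 CPM (counts scaled to library size) in every library. On the average of the lines 9 of them, IRF4 included, were lower and JCHAIN was higher, beside 28% and 36.5% of all genes. In RPMI-8226 alone SLAMF7, one of the 9, was called higher. Of 6 T and NK cell markers, 5 were called higher in H929, beside 32.9% of all genes. CD3D, among those 5, had no count with EV in any line. It entered the test through IRF4 libraries alone, so its call is in part set by the filter on low counts. The 6 summed in H929 to 123 to 134 CPM with the IRF4 guide and 13.8 to 15.8 CPM with EV. Most of it was CD3E (107 ± 10.8 with the IRF4 guide against 14.1 ± 0.985 CPM with EV), and CD3D and CD8A had no count with EV. The same sum was 11.1 to 15 with the IRF4 guide against 5.47 to 6.12 CPM with EV in MM1S, 2.16 to 3.57 with the IRF4 guide against 0 to 0.26 CPM with EV in OPM2 and 7.26 to 8.61 with the IRF4 guide against 3.29 to 5.35 CPM with EV in RPMI-8226. Of 5 myeloid markers, 2 were called higher in H929 (32.9% of all genes) and in OPM2 (23.3%) and 1, ITGAM, in MM1S (19.4%) and RPMI-8226 (19.2%). Their sum was 3.29 to 3.74 with the IRF4 guide against 0.14 to 0.375 CPM with EV in H929, 8.04 to 12.9 with the IRF4 guide against 1.33 to 2.34 CPM with EV in MM1S, 0.623 to 0.868 with the IRF4 guide against 0.119 to 0.149 CPM with EV in OPM2 and 8.94 to 16.2 with the IRF4 guide against 2.5 to 3.29 CPM with EV in RPMI-8226, with MPO at 0 or 1 count in every group. The 6 stromal, endothelial and epithelial markers summed to 22.7 to 38.2 with the IRF4 guide against 104 to 151 CPM with EV in H929, 3.05 to 3.84 with the IRF4 guide against 7.13 to 7.92 CPM with EV in MM1S, 2.2 to 3.36 with the IRF4 guide against 7.8 to 9.01 CPM with EV in OPM2 and 188 to 201 with the IRF4 guide against 232 to 242 CPM with EV in RPMI-8226, with COL1A2 at 0 throughout. The 5 erythroid and platelet markers summed to at most 3.27 CPM in any library. The part of these markers in the results below was not tested. In such bulk libraries fewer cells of a type and less RNA per cell cannot be told apart.

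The sequences before the start sites are shown for ABCA7, ABCE1, ABCF1 and ABCF2, which were called alike in all 4 lines. They are the 250 bases before the start from RefSeq on GRCh38.p14, in lower case with any searched motif in capitals.
ABCA7, chr19:1039857-1040106, plus strand: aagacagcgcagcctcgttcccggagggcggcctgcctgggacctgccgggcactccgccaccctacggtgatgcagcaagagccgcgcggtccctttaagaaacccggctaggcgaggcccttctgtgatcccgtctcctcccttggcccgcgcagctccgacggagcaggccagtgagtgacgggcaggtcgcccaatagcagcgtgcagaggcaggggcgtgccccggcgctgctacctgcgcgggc
ABCE1, chr4:145098061-145098310, plus strand: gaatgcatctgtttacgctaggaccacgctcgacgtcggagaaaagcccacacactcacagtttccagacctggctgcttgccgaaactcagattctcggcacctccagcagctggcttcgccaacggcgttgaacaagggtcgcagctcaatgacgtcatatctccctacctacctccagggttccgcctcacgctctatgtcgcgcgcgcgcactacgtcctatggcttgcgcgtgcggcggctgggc
ABCF1, chr6:30571192-30571441, plus strand: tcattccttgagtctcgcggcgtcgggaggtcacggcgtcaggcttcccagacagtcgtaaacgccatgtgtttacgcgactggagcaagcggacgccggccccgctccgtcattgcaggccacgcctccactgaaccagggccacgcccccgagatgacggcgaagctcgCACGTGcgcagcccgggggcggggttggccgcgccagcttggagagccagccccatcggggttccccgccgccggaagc
ABCF2, chr7:151227206-151227455, minus strand: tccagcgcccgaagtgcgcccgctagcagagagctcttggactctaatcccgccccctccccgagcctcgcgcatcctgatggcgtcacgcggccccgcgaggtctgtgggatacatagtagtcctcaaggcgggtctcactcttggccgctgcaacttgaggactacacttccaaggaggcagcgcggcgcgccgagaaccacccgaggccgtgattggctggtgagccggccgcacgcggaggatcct
The table held 53 such windows for 35 of the 46 genes, since some genes have several starts. Both strands of 300 bases around each start were searched for the tandem IRF half-sites (GAAA, any 2 bases, GAAA), the ETS-IRF composite (GGAA, any 2 bases, GAAA) and the E-box CACGTG. The tandem half-sites were in 3.57% of 35116 promoters and in ABCA9 and ABCC2 among the members. The composite was in 2.82% of all promoters and in none of the 53 windows. The E-box was in 7.26% of all promoters and in 9 of the 53 windows, those of ABCA1, ABCA9, ABCA12, ABCB6, ABCB9, ABCC10, ABCF1 and, in 2 overlapping windows, ABCG2. Of the 4 printed promoters, ABCF1 alone held a searched motif, an E-box 79 bases before the start. A match describes letters and is not evidence of binding.

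How many members could be measured differed by subfamily. A filter on low counts (about 0.454 CPM in at least 2 libraries) kept 30 members: 8 of A, 7 of B, 5 of C, all 4 of D, ABCE1, all 3 of F and 2 of G. The 16 others had 1 to 44 counts over all 23 libraries. ABCA4 (retina), ABCA8, ABCB5, ABCB11 (the bile salt pump), ABCC3, ABCC8 (a subunit of the pancreatic potassium channel), ABCC13 and ABCG8 (intestinal sterol export) had fewer than 10. ABCA6, ABCA13, ABCC6, ABCC9, ABCC11, ABCC12, ABCG4 and ABCG5 had 10 to 44. For such genes a level below the limit of a group, 3 counts or 0.0398 to 0.16 CPM, was not detectable at this depth. ABCA9, ABCA10, ABCB1 and ABCB4 passed the filter through IRF4 libraries alone, with no EV library over it, so a difference in them is in part set by the filter, and their p-values below are no independent sign of one.

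**Figure D1:**
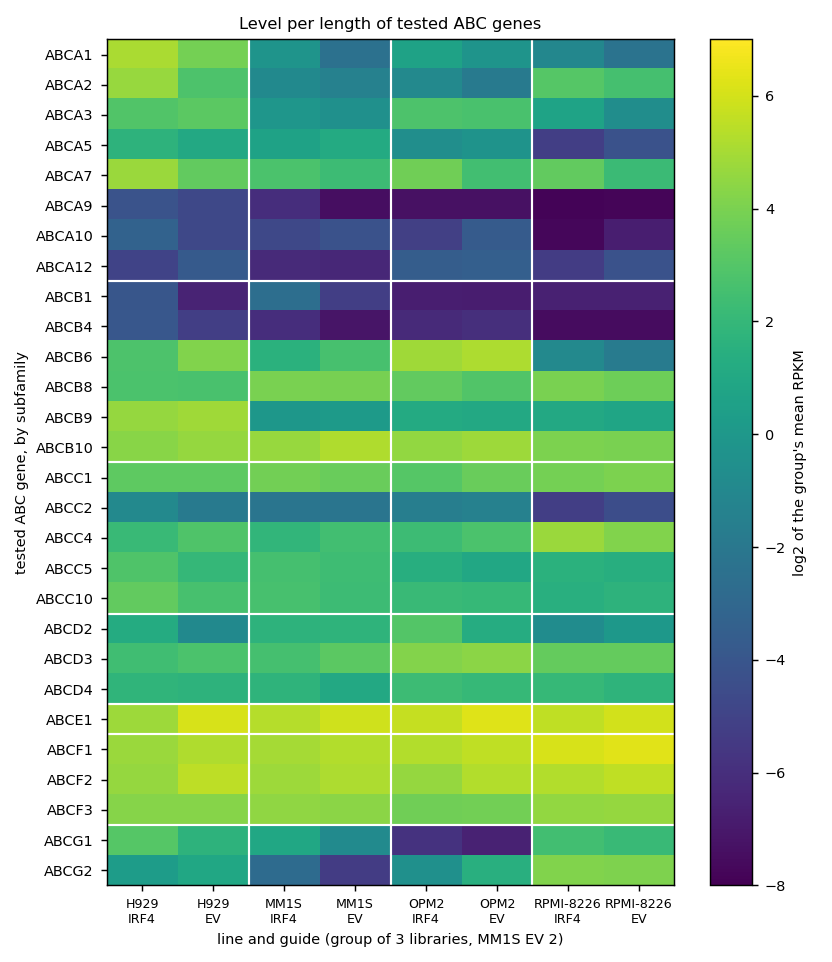
Level per length of 28 tested ABC genes. Colour gives the log2 of each group's mean RPKM in 8 columns, 1 for each line and guide, with subfamilies divided by white lines. ABCE1, ABCF1 and ABCF2 are bright in every column, while ABCB1, ABCB4 and ABCA9 stay dark.

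Per length, the cytosolic members ABCE1, ABCF1 and ABCF2 were the most abundant ABC genes of EV cells. On the deposited RPKM (reads scaled to transcript length and library size), averaged over the 11 EV libraries, ABCE1 stood at 67.9, ABCF1 at 52.4, ABCF2 at 42.0 and ABCF3 at 19.6. ABCB10 of the mitochondrial inner membrane, at 25.5 RPKM, was the most abundant member with a membrane domain. ABCB6, a porphyrin carrier, stood at 15.9 RPKM and ABCC1 at 12.4 RPKM. At the other end ABCB1 averaged 0.0130 RPKM. EV levels differed between the lines for 28 of 30 members, against 93.1% of all 16468 genes tested, and the exceptions were ABCB1 and ABCB4, both close to 0. Between EV cells of 2 lines, the share of all genes called was 63.1% for H929 over MM1S, 65.4% for H929 over OPM2, 75.1% for H929 over RPMI-8226, 61.4% for MM1S over OPM2, 67.7% for MM1S over RPMI-8226 and 72.9% for OPM2 over RPMI-8226.

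The guide effect was tested with edgeR's quasi-likelihood test, and calls are at a Benjamini-Hochberg adjusted p under 0.05 over all genes. Changes are log2 fold changes ± SE, and levels given with ± are means and SD over 3 libraries, or 2 for MM1S with EV. In H929, 14 of 30 tested members were called higher (46.7%) and 11 lower (36.7%), where 32.9% and 26.1% of all genes were. Of those 14, ABCA9, ABCA10, ABCB1 and ABCB4 had passed the filter through IRF4 libraries alone, which leaves 10. In MM1S 8 were higher and 8 lower (26.7% each), beside 19.4% and 15.2% of all genes, and ABCB1 was the only one of the 8 higher that had passed the filter in that way. With that line fitted alone the higher count was 5. It fell as well without MM1S EV replicate 2 or 3. Those fits left 1 EV library in the line and also changed the filter on low counts. In OPM2 9 were higher and 9 lower (30% each), beside 23.3% and 20.2% of all genes. In RPMI-8226 8 were higher (26.7%) and 4 lower (13.3%), beside 19.2% and 14.7%. On the average of the lines 12 of 28 were higher (42.9%), ABCB1 among them, and 8 lower (28.6%), beside 36.5% and 28%. The median log2 fold change of the members was 0.20, 0.21, 0.21 and 0.05 in H929, MM1S, OPM2 and RPMI-8226, against 0.10, 0.07, 0.03 and 0.04 over all genes tested. The members' shares were above those of all genes in both directions in H929, MM1S and OPM2 and upwards in RPMI-8226. Upwards, 4 of the 14 in H929 and 1 of the 8 in MM1S had passed the filter through IRF4 libraries alone. The upward count in OPM2 fell to as few as 6 without a library, so it depended on single libraries. Whether the family differs from other genes was not tested, and what follows concerns single genes.

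**Figure D2:**
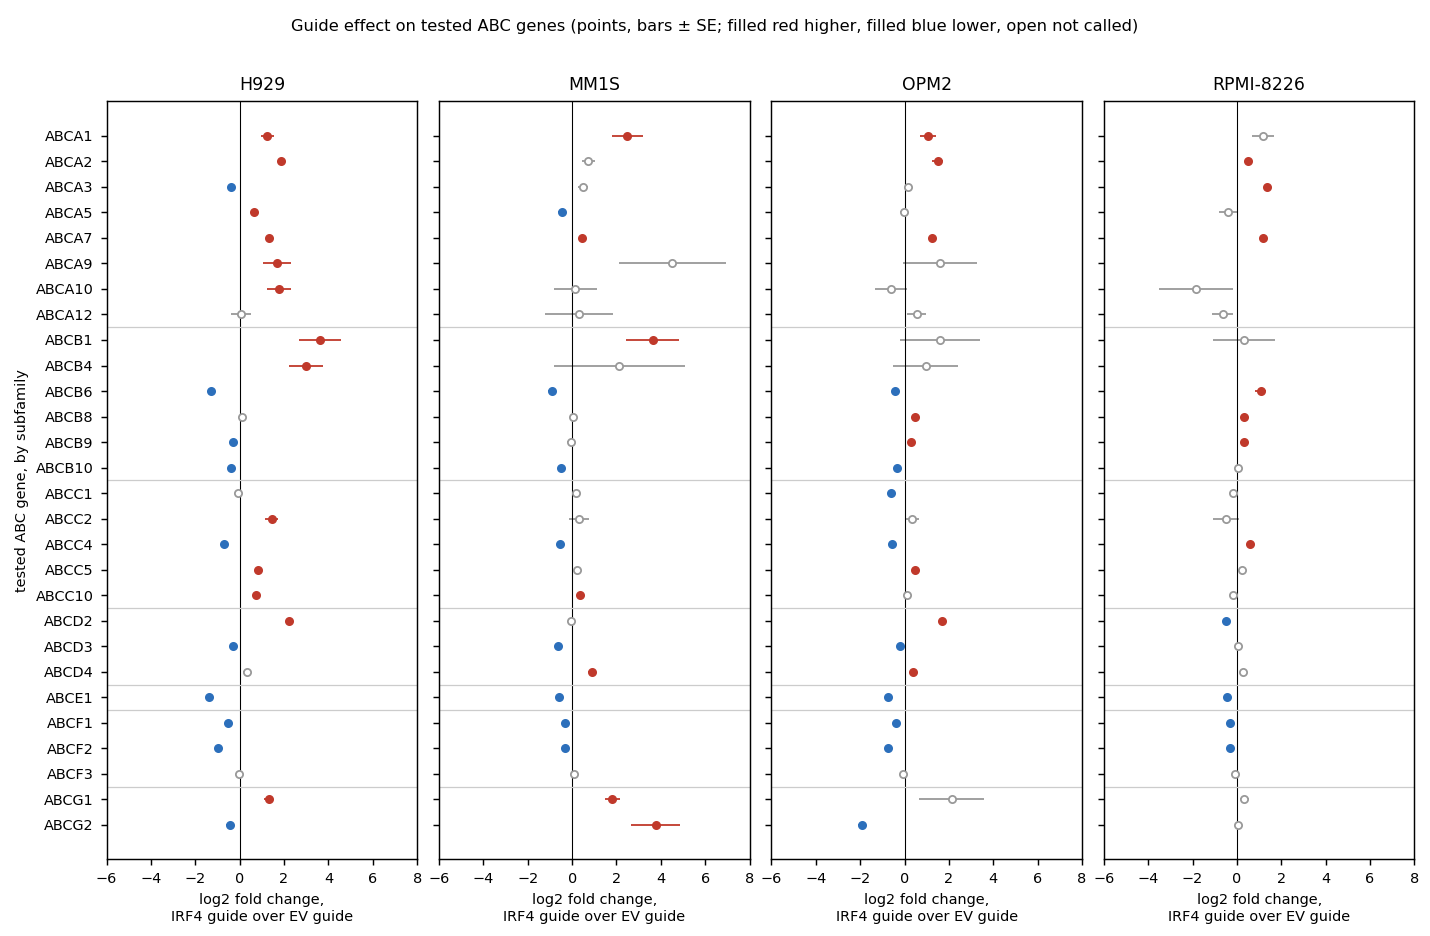
Guide effect on 28 tested ABC genes. Points are log2 fold changes (IRF4 guide over EV) with bars of ± SE, filled red where called higher, filled blue where called lower and open where not called. ABCA9 and ABCB4 have no point in RPMI-8226, where both guides had 0 counts. ABCE1, ABCF1 and ABCF2 are blue in all 4 lines and ABCA7 red in all 4.

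Of the drug efflux genes, ABCB1 was near absent in every line with EV, ABCC1 was present in every line, and ABCG2 averaged between 0.0558 CPM in MM1S and 87.1 CPM in RPMI-8226 with EV. None of them was called the same way in all 4 lines. ABCB1 (Entrez 5243, chr7:87503017-87713295) encodes P-glycoprotein (coordinates here and below are on GRCh38.p14). In H929 it had 14, 5 and 9 counts with the IRF4 guide, against 0, 0 and 2 with EV (0.533 ± 0.0874 with the IRF4 guide against 0.0311 ± 0.0538 CPM with EV, SD, n = 3 each). In MM1S it had 20, 3 and 10 counts with the IRF4 guide, against 1 and 0 with EV (0.797 ± 0.547 CPM with the IRF4 guide, n = 3, against 0.0510 ± 0.0721 CPM with EV, n = 2). All IRF4 libraries of both lines exceeded their EV libraries. The ratio of summed normalised counts was 14.1 in H929 (95% counting interval 3.57 to 123) and 13.6 in MM1S (2.28 to 553).

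ABCB1 was over the filter in 4 IRF4 libraries and in no EV library, so its entry into the test already rested on its being high with the IRF4 guide. With that limit, the fitted change was 3.61 ± 0.94 in H929 (adjusted p = 0.00156) and 3.64 ± 1.2 in MM1S (adjusted p = 0.0188). With so few counts single libraries weighed heavily. In H929 the value was 2.84 without EV replicate 1 and 6.28 without EV replicate 3. In MM1S the call was lost with DESeq2 (adjusted p = 0.0745). The MM1S value was 6.85 without EV replicate 2 and 2.79 without EV replicate 3. Each of these fits left 1 EV library in the line, and neither kept the call. The call on the average (2.29 ± 0.96, adjusted p = 0.038) was lost without H929 EV replicate 1, MM1S EV replicate 3, OPM2 EV replicate 1 or 3, RPMI-8226 EV replicate 1 or RPMI-8226 IRF4 replicate 3 (1.57 to 2.29, adjusted p 0.0507 to 1), and with a replicate block within each line (2.08, adjusted p = 0.0787). It was 2.96 without H929 EV replicate 3, 3.10 without MM1S EV replicate 2 and 2.93 without RPMI-8226 EV replicate 2. OPM2 had 1 count with the IRF4 guide and 0 with EV, which allows up to 0.0517 CPM, and RPMI-8226 had 3 with the IRF4 guide against 2 with EV. RUNDC3B, a gene that overlaps ABCB1, had 3.55 ± 0.401 with the IRF4 guide against 3.26 ± 0.441 CPM with EV in H929 and 6.23 ± 0.153 with the IRF4 guide against 2.94 ± 0.414 CPM with EV in MM1S. Overlaps here and below are of whole gene spans, which 13 tested members had with another gene. Whether reads were shared was not examined, and the strand of the reads is not known.

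ABCC1 (Entrez 4363, chr16:15949143-16143053) encodes MRP1, which exports glutathione conjugates. In OPM2 it had 48.2, 54.9 and 54.6 CPM with the IRF4 guide, against 67.4, 85.6 and 86.1 CPM with EV. The groups did not overlap, and the change was -0.60 ± 0.08 (adjusted p = 9.88e-07). It was called in no other line: the change was -0.06 ± 0.08 in H929 (adjusted p = 0.587), 0.19 ± 0.10 in MM1S (0.129) and -0.19 ± 0.08 in RPMI-8226 (0.0694). The groups did not overlap in MM1S or RPMI-8226 either, and each of these changes was called in some alternative. On the average of the lines ABCC1 was called lower (-0.16 ± 0.04, adjusted p = 0.00149). The effect differed between lines (F test, adjusted p = 5.19e-05). With EV its level was 112 ± 1.64 CPM in RPMI-8226 (n = 3), 81.0 ± 0.353 in MM1S (n = 2), 79.7 ± 10.7 in OPM2 and 65.8 ± 4.88 in H929 (n = 3 each). RPMI-8226 exceeded each other line and H929 was under each (adjusted p of 0.00698 or less), while a difference between MM1S and OPM2 was not detected (adjusted p = 0.835).

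ABCG2 (Entrez 9429, chr4:88090264-88231626) encodes the breast cancer resistance protein, a pump for drugs and urate. With EV it had 95, 84.5 and 81.7 CPM in RPMI-8226, 13.8, 14 and 8.81 CPM in OPM2, 11.7, 9 and 8.29 CPM in H929 and 0 and 0.112 CPM in MM1S. So RPMI-8226 stood highest, and MM1S had a single count. Between H929 and OPM2 no difference was detected (adjusted p = 0.137), while OPM2 was lower than RPMI-8226 by a log2 difference of -2.86 ± 0.16 (adjusted p = 2.43e-15). Per length, ABCG2 in EV cells of RPMI-8226 stood at 16.8 ± 1.14 RPKM, beside 16.3 ± 0.554 RPKM for ABCC1. In EV cells of H929 the values were 1.95 ± 0.412 RPKM for ABCG2 and 9.61 ± 0.74 RPKM for ABCC1.

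ABCG2 was called lower in OPM2 and, on few counts, higher in MM1S. In OPM2 it had 2.5, 3.74 and 3.36 CPM with the IRF4 guide, all below the 3 EV libraries, and the change was -1.93 ± 0.19 (adjusted p = 4.45e-09). In MM1S it had 26, 4 and 7 counts with the IRF4 guide against 0 and 1 with EV, a ratio of 15.2 (95% counting interval 2.57 to 618). The MM1S change of 3.76 ± 1.09 (adjusted p = 0.00827) was not called with a replicate block within each line (3.52, adjusted p = 0.105). It was 2.78 without EV replicate 2, where the call was lost, and 6.97 without EV replicate 3. Each of these fits left 1 EV library in MM1S. In RPMI-8226, where ABCG2 was most abundant, 81.9, 90.1 and 101 CPM with the IRF4 guide overlapped the EV libraries (0.06 ± 0.14, adjusted p = 0.779). The H929 call (-0.42 ± 0.18, adjusted p = 0.0483; 6.17, 7.84 and 8.22 CPM with the IRF4 guide) was lost without any of 13 libraries (-0.46 to -0.23, adjusted p 0.0506 to 0.36) and under 6 other alternatives. These were replicates 1 and 2 of both guides in H929, MM1S IRF4 replicates 1 and 3, both MM1S EV libraries, OPM2 IRF4 replicate 3, RPMI-8226 IRF4 replicate 2 and all RPMI-8226 EV libraries. The effect differed between lines (adjusted p = 1.95e-07).

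**Figure D3:**
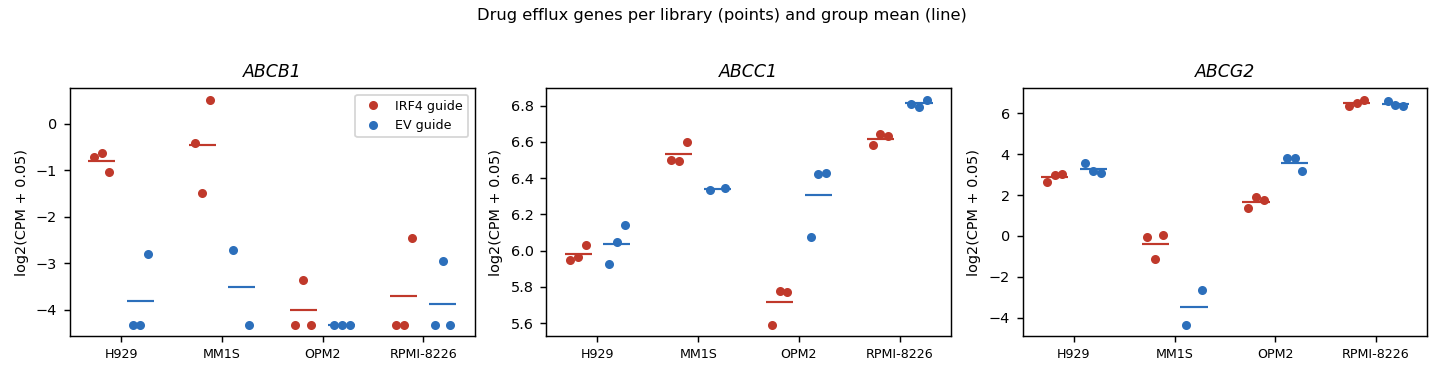
Drug efflux genes per library. Points are libraries and lines group means on log2(CPM + 0.05), with the IRF4 guide in red left of the EV guide in blue in each line. ABCB1 is raised in H929 and MM1S near the detection limit, ABCC1 is lower in OPM2, and ABCG2 spans the whole range between MM1S and RPMI-8226.

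The members of subfamilies E and F act on ribosomes, and 3 of the 4 fell in every line. ABCE1 (Entrez 6059, chr4:145098311-145129524) splits ribosomes for reuse after termination. In H929 it had 112, 115 and 114 CPM with the IRF4 guide, against 334, 301 and 253 CPM with EV. In MM1S the values were 179, 170 and 147 CPM with the IRF4 guide against 264 and 237 CPM with EV. In OPM2 they were 197, 237 and 182 with the IRF4 guide against 341, 375 and 307 CPM with EV, and in RPMI-8226 195, 213 and 188 with the IRF4 guide against 281, 288 and 238 CPM with EV. No line had an overlap. On the log2 scale ABCE1 fell by 1.38 ± 0.11, 0.60 ± 0.12, 0.73 ± 0.10 and 0.44 ± 0.10 in H929, MM1S, OPM2 and RPMI-8226 (adjusted p from 5.42e-12 to 0.00138). The size differed between lines (adjusted p = 2.79e-05). ABCE1 overlaps ANAPC10 in span, and whether reads of the 2 genes were shared was not examined.

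ABCF1 (Entrez 23, chr6:30571442-30591522) binds initiation factor eIF2 and ribosomes. It had 90.5, 90.3 and 94.9 CPM with the IRF4 guide against 139, 132 and 122 CPM with EV in H929, and 228, 251 and 231 with the IRF4 guide against 291, 309 and 276 CPM with EV in RPMI-8226. In MM1S the values were 110, 108 and 109 with the IRF4 guide against 136 and 132 CPM with EV, and in OPM2 123, 136 and 130 with the IRF4 guide against 175, 168 and 165 CPM with EV. ABCF1 was thus lower in every IRF4 library of a line than in that line's EV libraries. The log2 changes were -0.51 ± 0.07, -0.30 ± 0.08, -0.39 ± 0.07 and -0.30 ± 0.07 in H929, MM1S, OPM2 and RPMI-8226 (adjusted p from 1.99e-07 to 0.00265), and the test of unequal effects among lines gave an adjusted p of 0.219.

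ABCF2 (Entrez 10061, chr7:151211484-151227205) is a further cytosolic member of that subfamily. It had 121, 121 and 124 CPM with the IRF4 guide against 254, 254 and 221 CPM with EV in H929, and 116, 134 and 123 with the IRF4 guide against 203, 214 and 205 CPM with EV in OPM2. In MM1S it had 149, 147 and 137 with the IRF4 guide against 182 and 176 CPM with EV, and in RPMI-8226 184, 221 and 194 with the IRF4 guide against 245, 261 and 238 CPM with EV. Here too no groups overlapped. ABCF2 changed by -0.99 ± 0.08 in H929 and -0.74 ± 0.08 in OPM2, and by -0.31 ± 0.08 in MM1S and -0.32 ± 0.07 in RPMI-8226. The effects differed between lines (adjusted p = 5.18e-06). The MM1S call (adjusted p = 0.00493) was lost without EV replicate 2 (-0.28), a fit that left 1 EV library in that line. ABCF3 was called in no line: its log2 fold change was -0.05 ± 0.08, 0.10 ± 0.09, -0.06 ± 0.08 and -0.07 ± 0.07 (adjusted p from 0.391 to 0.618), at 58.2 ± 3.59 with the IRF4 guide against 60.0 ± 0.406 CPM with EV in H929. Over all genes, 3.83% were called lower in each of the 4 lines.

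Of 13 partners of subfamilies E and F in ribosome recycling and initiation, 10 were lower and none higher on the average, beside 28% and 36.5% of all genes, with a median of -0.36 for the list and 0.09 over all genes tested. GSPT1 and ETF1, the termination factors, changed by -0.66 ± 0.04 and -0.55 ± 0.04 on the average. EIF2S1 and EIF2S2, subunits of eIF2, changed by -0.66 ± 0.05 and -0.58 ± 0.05. EIF3J, which like ABCE1 acts in ribosome recycling, changed by -0.56 ± 0.04, and HBS1L, a ribosome rescue factor, by -0.60 ± 0.04. These 6 genes were called lower in all 4 lines. Single lines went the other way for PELO, a ribosome rescue factor that was higher in H929 (0.82 ± 0.11, adjusted p = 7.80e-08) and lower in OPM2 and RPMI-8226, and for EIF2AK4, a kinase of eIF2 that was higher in MM1S (0.45 ± 0.09, adjusted p = 0.000167).

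**Figure D4:**
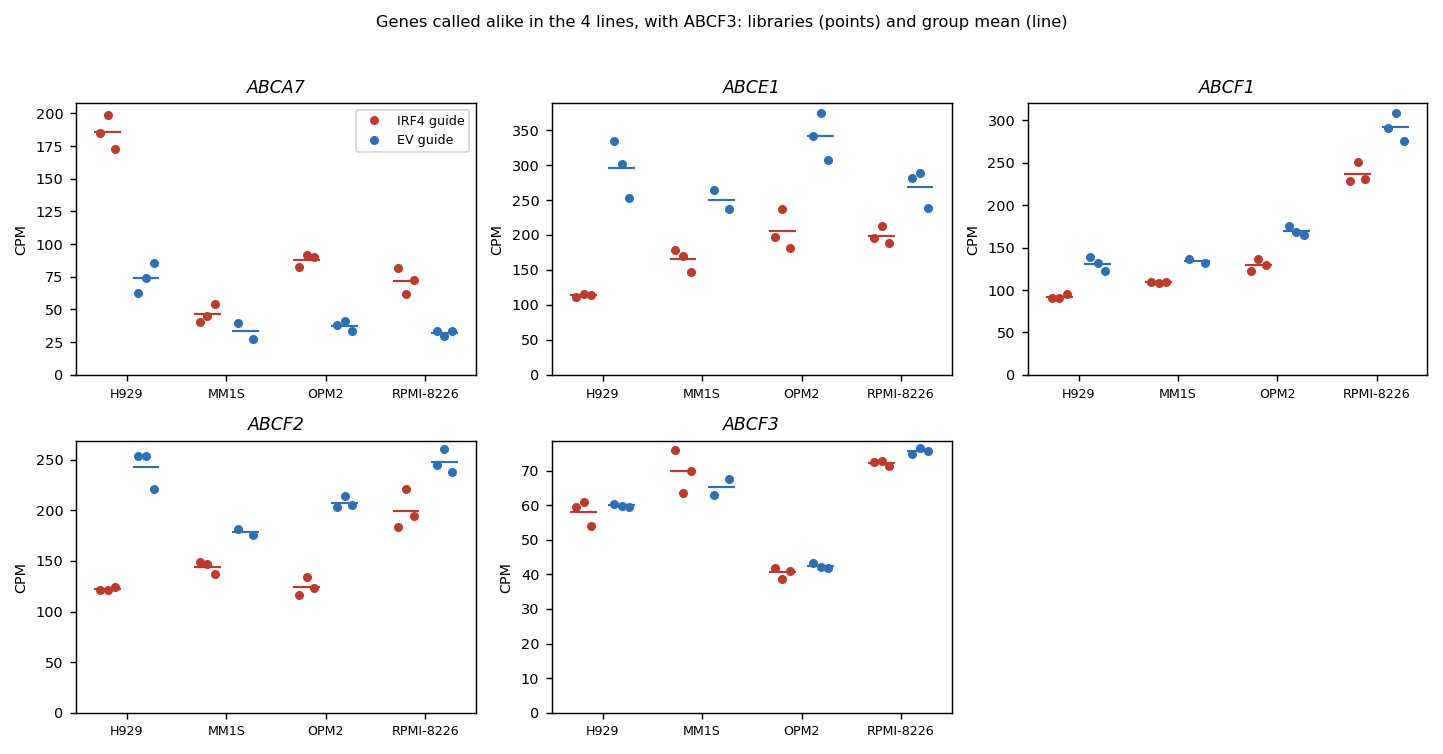
Genes called alike in the 4 lines, with ABCF3. Points are libraries and lines group means in CPM from 0, with the IRF4 guide in red left of the EV guide in blue. The red and blue points of ABCA7, ABCE1, ABCF1 and ABCF2 do not overlap in any line, while those of ABCF3 lie close together.

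Subfamily A moves lipids. Averaged over lines, 4 of its 7 members with a value were called higher (57.1%, beside 36.5% of all genes). None of the 7 was lower, where 28% of all genes were. In H929 6 of 8 were called higher (75%, beside 32.9% of all genes) and 1 lower (12.5%, beside 26.1%). ABCA9 and ABCA10, among the 6, had passed the filter through IRF4 libraries alone. In MM1S 2 were higher (25%, beside 19.4%) and 1 lower (12.5%, beside 15.2%). In OPM2 and RPMI-8226 3 were higher (37.5%, beside 23.3% in OPM2 and 19.2% in RPMI-8226). None was lower there, beside 20.2% of all genes in OPM2 and 14.7% in RPMI-8226. Whether these shares differ from those of all genes was not tested, and 7 or 8 members are few. ABCA7 (Entrez 10347, chr19:1040107-1065572), a lipid transporter tied to phagocytosis, was higher in all 4 lines. It had 185, 199 and 173 CPM with the IRF4 guide against 62.9, 74.4 and 85.9 CPM with EV in H929, and 82.5, 91.3 and 90.2 with the IRF4 guide against 38.2, 41 and 33.7 CPM with EV in OPM2. In RPMI-8226 it had 82, 61.5 and 72.9 with the IRF4 guide against 33.8, 29.6 and 33.3 CPM with EV, and in MM1S 40.2, 45.4 and 54 with the IRF4 guide against 39.4 and 27.2 CPM with EV. The groups were apart in each line, narrowly in MM1S. ABCA7 rose by 1.32 ± 0.13, 1.23 ± 0.13 and 1.16 ± 0.13 in H929, OPM2 and RPMI-8226 (adjusted p of 1.40e-07 or less) and by 0.46 ± 0.16 in MM1S (0.0241). The MM1S call was lost without IRF4 replicate 3 or EV replicate 3 (0.22 to 0.35), with that line alone and with a replicate block shared by the lines. The fit without EV replicate 3 left 1 EV library in MM1S. Over all genes, 5.14% were called higher in each of the 4 lines.

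ABCA2, an endolysosomal lipid transporter, was called in 3 lines. In H929 it had 236, 202 and 214 CPM with the IRF4 guide, against 48.5, 53.9 and 74.6 CPM with EV, a rise of 1.88 ± 0.13 (adjusted p = 1.24e-12). In OPM2 it had 4.11, 3.88 and 3.69 with the IRF4 guide against 1.37, 1.07 and 1.5 CPM with EV (1.5 ± 0.24, adjusted p = 1.04e-05). In RPMI-8226 it was also higher (0.50 ± 0.13, adjusted p = 0.00343, 69.0 ± 7.07 with the IRF4 guide against 49.1 ± 4.4 CPM with EV), in MM1S the change was 0.72 ± 0.29 (adjusted p = 0.0554), and the effect differed between lines (adjusted p = 3.70e-06). The RPMI-8226 call was lost on the deposited log2 RPKM (0.48, adjusted p = 0.0718).

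ABCA1 and ABCG1 export cholesterol to lipoproteins and are known targets of the LXR receptors. ABCA1 had 425, 368 and 361 CPM with the IRF4 guide against 189, 141 and 157 CPM with EV in H929, and 10.6, 10.3 and 9.42 with the IRF4 guide against 1.43 and 2.23 CPM with EV in MM1S. In OPM2 it had 21.6, 10.5 and 16.8 with the IRF4 guide against 9.14, 4.03 and 8.9 CPM with EV, and in RPMI-8226 9.23, 2.36 and 6.23 with the IRF4 guide against 3.91, 1.99 and 0.987 CPM with EV. The groups overlapped in RPMI-8226 alone. ABCA1 rose by 1.24 ± 0.29 in H929 (adjusted p = 0.00168), 2.49 ± 0.71 in MM1S (0.0119) and 1.05 ± 0.37 in OPM2 (0.03), and its change was 1.18 ± 0.49 in RPMI-8226 (0.0766). Its effect was not found to differ between lines (adjusted p = 0.518). The MM1S call was lost without EV replicate 2 or 3 (2.20 to 2.84), fits that each left 1 EV library in that line. The OPM2 call was lost without any of 5 OPM2 libraries, IRF4 replicate 2 being the exception (0.79 to 1.2, adjusted p 0.0514 to 0.143).

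ABCG1 had 89, 87.5 and 87.6 CPM with the IRF4 guide against 35.8, 32.9 and 37.9 CPM with EV in H929. In MM1S it had 18.3, 24.4 and 20.9 with the IRF4 guide against 5.1 and 6.81 CPM with EV. Both rises were clear of the spread, at 1.30 ± 0.20 (adjusted p = 1.24e-05) and 1.82 ± 0.32 (adjusted p = 0.000142). In RPMI-8226 it had 86.3, 41.7 and 54.9 with the IRF4 guide against 59.4, 42.3 and 43.1 CPM with EV, with overlap (0.33 ± 0.19, adjusted p = 0.213). OPM2 had 13 counts with the IRF4 guide against 2 with EV, a ratio of 5 (95% counting interval 1.13 to 45.7) that was not called (adjusted p = 0.272) except with a replicate block within each line (2.23, adjusted p = 0.0414). The effect differed between lines (adjusted p = 0.00672), and the call on the average (1.39 ± 0.37) was lost without OPM2 IRF4 replicate 1 (1.07, adjusted p = 0.112).

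Of the 16 genes listed for sterol efflux and LXR, 14 were tested, and 6 were higher and 4 lower on the average (36.5% and 28% of all genes), with a median of 0.10 against 0.09 over all genes tested. RXRA, the partner receptor of LXR, changed by 0.62 ± 0.06 and NPC2, a carrier of lysosomal cholesterol, by 0.49 ± 0.06. SCD, which desaturates fatty acids, changed by -1.15 ± 0.12.

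The remaining members of subfamily A were split or scarce. ABCA3, a phospholipid carrier known from lung surfactant, had 12.6, 10.2 and 11.4 CPM with the IRF4 guide against 5.1, 3.87 and 4.28 CPM with EV in RPMI-8226 (1.35 ± 0.15, adjusted p = 7.55e-08). In H929 it was lower, at 46.5, 47.2 and 51.1 with the IRF4 guide against 56.2, 65.8 and 69.8 CPM with EV (-0.40 ± 0.12, adjusted p = 0.00467), and on the deposited log2 RPKM this call was lost (-0.33, adjusted p = 0.0806). ABCA5, a lysosomal member, was higher in H929 (0.64 ± 0.14, adjusted p = 0.000235) and lower in MM1S (-0.47 ± 0.17, adjusted p = 0.0286). The MM1S call was lost without IRF4 replicate 1 or 2 or EV replicate 2 (-0.44 to -0.35). The fit without EV replicate 2 left 1 EV library in MM1S. ABCA12, which supplies skin lipids, was called nowhere and had at most 1.25 CPM in a library.

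ABCA8, ABCA9, ABCA6, ABCA10 and ABCA5 lie in a row on chromosome 17. ABCA9 and ABCA10 were called in H929, though no EV library had brought either through the filter. ABCA10 had 11, 13 and 22 counts with the IRF4 guide against 10, 0 and 5 with EV (0.44, 1.57 and 1.06 CPM with the IRF4 guide against 0.399, 0 and 0.233 CPM with EV), and its change was 1.76 ± 0.55 (adjusted p = 0.00732). That value was 2.43 without EV replicate 1. ABCA9 had 13, 6 and 14 counts with the IRF4 guide against 3, 3 and 4 with EV (1.69 ± 0.63, adjusted p = 0.0248), and the call was lost without IRF4 replicate 3, EV replicate 1 or EV replicate 3 (1.33 to 1.66, adjusted p 0.0694 to 0.135). ABCA6, untested, had 20 with the IRF4 guide against 4 counts with EV in H929, a ratio of 5.05 (95% counting interval 1.69 to 20.3). The spans of ABCA9 and ABCA6 overlap in part, as do those of ABCA10 and ABCA5. Whether their reads were shared was not examined.

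Subfamily B, beside ABCB1, split by line. ABCB6, in mitochondria and other membranes, had 21.7, 22.1 and 22.1 CPM with the IRF4 guide against 51.3, 57.3 and 53.7 CPM with EV in H929, and 10.5, 9.51 and 9.84 with the IRF4 guide against 20.6 and 17.3 CPM with EV in MM1S. In OPM2 it had 75, 98.5 and 77.2 with the IRF4 guide against 112, 118 and 104 CPM with EV, and in RPMI-8226 1.53, 1.71 and 2.71 with the IRF4 guide against 0.905, 1.06 and 0.768 CPM with EV. No groups overlapped, and RPMI-8226, where the gene is scarce, went the other way. The log2 changes of ABCB6 were -1.29 ± 0.11, -0.92 ± 0.15 and -0.42 ± 0.10 in H929, MM1S and OPM2, and 1.07 ± 0.24 in RPMI-8226 (adjusted p of 0.00148 or less). The difference between lines had an adjusted p of 6.01e-08. The OPM2 call was lost on the deposited log2 RPKM (-0.34, adjusted p = 0.107).

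ABCB10, which supports haem synthesis, had 99.8, 102 and 94.9 CPM with the IRF4 guide against 127, 140 and 124 CPM with EV in H929. It was lower there (-0.40 ± 0.09), in MM1S (-0.51 ± 0.10, 132 ± 11 with the IRF4 guide against 188 ± 0.485 CPM with EV) and in OPM2 (-0.35 ± 0.09, 117 ± 18 with the IRF4 guide against 149 ± 16.4 CPM with EV). In RPMI-8226 the change was 0.06 ± 0.09 (adjusted p = 0.678), and the effect differed between lines (adjusted p = 0.00353). ABCB8, also mitochondrial, was higher in OPM2 (0.48 ± 0.09, 48.8 ± 4.41 with the IRF4 guide against 35.1 ± 0.352 CPM with EV) and RPMI-8226 (0.33 ± 0.08, 75.1 ± 3.21 with the IRF4 guide against 60.2 ± 4.31 CPM with EV) and was called in neither H929 nor MM1S.

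ABCB9, a lysosomal peptide carrier, was most abundant in H929, at 162 ± 22.4 CPM with the IRF4 guide and 200 ± 13 CPM with EV, with overlap (-0.30 ± 0.09, adjusted p = 0.00654, lost on the deposited log2 RPKM). It was called higher in OPM2 (0.28 ± 0.11, adjusted p = 0.0498) and RPMI-8226 (0.32 ± 0.11, adjusted p = 0.0282). The OPM2 call was lost without any of 14 libraries (0.24 to 0.30, adjusted p 0.0508 to 0.153). These were 5 of H929 (IRF4 replicates 1 and 3 and all EV), 5 of OPM2 (all but EV replicate 3) and 4 of RPMI-8226 (IRF4 replicate 1 and all EV). The RPMI-8226 call was lost without IRF4 replicate 1 or 2 or EV replicate 2 or 3 (0.28 to 0.32, adjusted p 0.0594 to 0.107). ABCB4, a phospholipid floppase of the liver, lies 27 kb from ABCB1. In H929 it had 18, 4 and 13 counts with the IRF4 guide against 2, 2 and 0 with EV, a ratio of 8.84 (95% counting interval 3.16 to 34.3). ABCB4 overlaps CROT, a gene that was itself called higher in H929. Whether the 2 genes shared reads was not examined, and the strand of the reads is not known. ABCB4 too was over the filter in IRF4 libraries alone, 3 of them. With that limit, its fitted change was 2.98 ± 0.76 (adjusted p = 0.00153), 3.71 without EV replicate 2 and 2.27 without EV replicate 3, and DESeq2 did not call it (adjusted p = 0.11).

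Of 15 haem and iron-sulphur genes, 4 were higher and 5 lower on the average, beside 36.5% and 28% of all genes, with a median at 0. ALAD, an early enzyme of haem synthesis, was higher in all 4 lines (0.44 ± 0.05 on the average). CPOX, a later enzyme of that pathway, was lower in all 4 (-0.54 ± 0.05). Among relatives whose symbols the rule does not take, the peptide transporter subunits TAP1 and TAP2 changed by 0.13 ± 0.04 (adjusted p = 0.0106) and -0.21 ± 0.04 (adjusted p = 4.93e-06) on the average, while ABCA11P was called in no line.

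**Figure D5:**
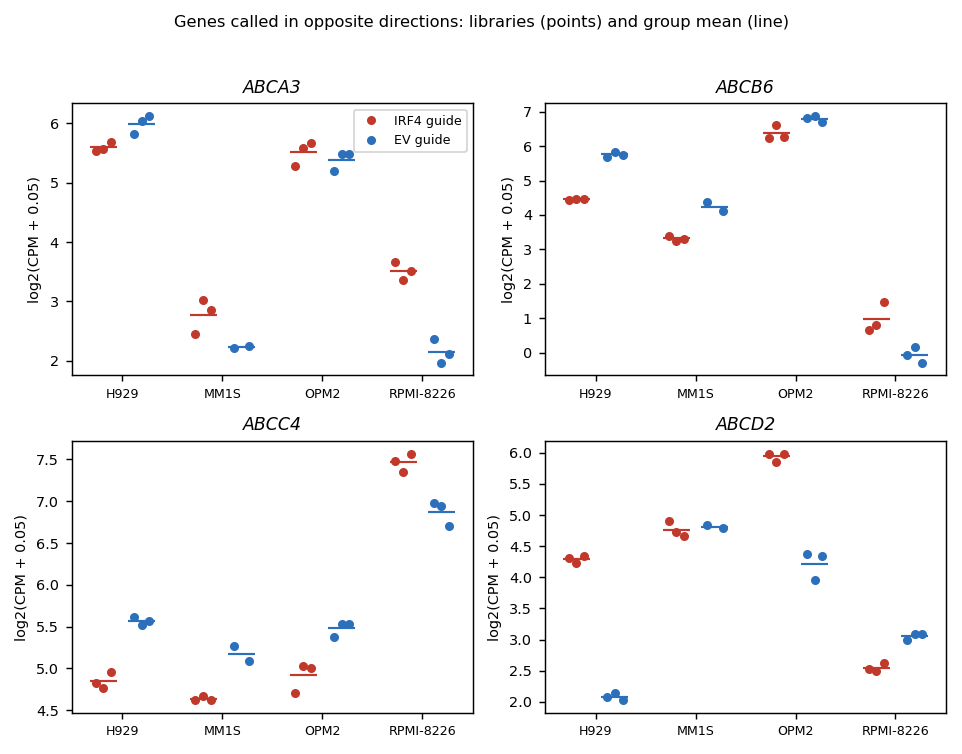
ABC genes called in opposite directions in different lines. Points are libraries and lines group means on log2(CPM + 0.05), with the IRF4 guide in red left of the EV guide in blue. ABCB6 and ABCC4 are lower in H929, MM1S and OPM2 and higher in RPMI-8226, while ABCD2 is higher in H929 and OPM2 and lower in RPMI-8226.

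In subfamily C the guide effect differed between lines for each of the 5 tested members, beside 48% of all genes. For ABCC2 the F test gave an adjusted p of 0.0347. ABCC4, or MRP4, which exports cyclic nucleotides and prostaglandins, had 28.4, 27.2 and 31.1 CPM with the IRF4 guide against 49.1, 45.9 and 47.3 CPM with EV in H929. In MM1S it had 24.5, 25.4 and 24.5 with the IRF4 guide against 38.4 and 33.9 CPM with EV, and in OPM2 26.1, 32.7 and 32.1 with the IRF4 guide against 41.6, 46.4 and 46.3 CPM with EV. RPMI-8226 had the opposite order, at 178, 163 and 190 with the IRF4 guide against 126, 123 and 104 CPM with EV. Groups were apart in each line. The changes were -0.71 ± 0.10, -0.55 ± 0.11, -0.56 ± 0.09 and 0.58 ± 0.09 in H929, MM1S, OPM2 and RPMI-8226 (adjusted p from 1.76e-07 to 0.000338), and the difference between lines had an adjusted p of 2.81e-09.

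ABCC5, an exporter of nucleotides, had 54.2, 60.3 and 51.3 CPM with the IRF4 guide against 30.2, 30.9 and 32 CPM with EV in H929 (0.83 ± 0.10, adjusted p = 3.72e-08) and was also higher in OPM2 (0.48 ± 0.11, adjusted p = 0.000538). In MM1S and RPMI-8226 its change was 0.24 ± 0.12 and 0.21 ± 0.10 and was not called. ABCC10, or MRP7, had 64.6, 69.3 and 59.1 with the IRF4 guide against 35.8, 40.3 and 38.5 CPM with EV in H929 (0.75 ± 0.11, adjusted p = 5.67e-07). It was also called in MM1S (0.36 ± 0.13, adjusted p = 0.0329), but not without IRF4 replicate 1 or 2 or EV replicate 2 or 3 (0.33 to 0.36). The fits without an EV replicate left 1 EV library in MM1S. ABCC2, the conjugate pump of liver cells, was scarce. In H929 it had 4.24, 4.34 and 4.3 with the IRF4 guide against 1.44, 1.75 and 1.63 CPM with EV (1.44 ± 0.30, adjusted p = 0.000153), and on the deposited log2 RPKM this was not called (0.96, adjusted p = 0.165).

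ABCC6 and ABCC11 were not tested. ABCC6 neighbours ABCC1 on chromosome 16 and serves ATP release from liver cells. In H929 it had 17 counts with the IRF4 guide against 6 with EV, a ratio of 2.86 (95% counting interval 1.08 to 8.87). In OPM2 ABCC6 had 0 counts with the IRF4 guide against 5 with EV. In RPMI-8226 it had 10 with the IRF4 guide against 3 with EV, a ratio of 2.89 (0.745 to 16.4). ABCC11, known for earwax type, had 11 with the IRF4 guide against 0 counts with EV in MM1S. With the EV group set at a floor of 3 counts, the ratio was 1.51. That ratio leaves out the counting error of the IRF4 group, so it is no lower limit. On that floor the ratio was 1.37 for ABCA13 in MM1S, at 10 with the IRF4 guide against 0 counts with EV. It was 1.45 for ABCC3 in RPMI-8226, at 5 with the IRF4 guide against 0 counts with EV. ABCG4, a sterol exporter of brain, had 13 with the IRF4 guide against 4 counts with EV in H929, a ratio of 3.28 (1.01 to 13.8). Apart from ABCA6 in H929, given above, every other interval of an untested member included 1. Some ratios pointed the other way, such as that of ABCB11 in MM1S. It had 1 count with the IRF4 guide against 4 with EV (0.00209 to 1.04). Beside subfamily C, 13 of 15 glutathione and NRF2 genes had a value on the average, of which 4 were higher and 3 lower (36.5% and 28% of all genes), with a median of 0.08. GSTK1, a glutathione transferase, changed by 0.85 ± 0.04, and GCLM, a subunit of the enzyme that starts glutathione synthesis, by -0.40 ± 0.05. KCNJ11, the channel partner of ABCC8, was lower in H929 (-1.15 ± 0.22, adjusted p = 4.99e-05) and was called in no other line.

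In subfamily D, ABCD2, a peroxisomal carrier of long fatty acids, had the smallest p of a difference between lines among the members (adjusted p = 6.72e-14). It had 19.7, 18.7 and 20.2 CPM with the IRF4 guide against 4.19, 4.38 and 4.01 CPM with EV in H929, and 63.3, 58 and 63.4 with the IRF4 guide against 20.6, 15.4 and 20.3 CPM with EV in OPM2. In MM1S it had 29.8, 26.4 and 25.2 with the IRF4 guide against 28.5 and 27.7 CPM with EV, and in RPMI-8226 5.69, 5.58 and 6.09 with the IRF4 guide against 7.9, 8.49 and 8.45 CPM with EV. It rose in H929 (2.23 ± 0.12, adjusted p = 2.66e-15) and OPM2 (1.69 ± 0.10, adjusted p = 7.11e-14), fell in RPMI-8226 (-0.51 ± 0.12, adjusted p = 0.00148) and overlapped in MM1S (-0.04 ± 0.12).

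ABCD3, which carries branched-chain fatty acids and bile acid precursors into peroxisomes, was lower in H929 (-0.30 ± 0.09, 23.2 ± 1.45 with the IRF4 guide against 29.0 ± 3.08 CPM with EV), MM1S (-0.62 ± 0.11, 26.8 ± 1.34 with the IRF4 guide against 41.5 ± 3.63 CPM with EV) and OPM2 (-0.22 ± 0.08, 77.4 ± 3.16 with the IRF4 guide against 89.9 ± 2.06 CPM with EV). The OPM2 call (adjusted p = 0.0386) was lost without each OPM2 library but IRF4 replicate 2, without RPMI-8226 IRF4 replicate 3 (-0.23 to -0.19, adjusted p 0.053 to 0.111) and under 5 other alternatives. ABCD4, of the lysosomal cobalamin pathway, was higher in MM1S (0.90 ± 0.18, 12.2 ± 0.911 with the IRF4 guide against 6.56 ± 0.344 CPM with EV) and OPM2 (0.39 ± 0.13, 15.8 ± 0.979 with the IRF4 guide against 12 ± 1.16 CPM with EV). The OPM2 call was lost without IRF4 replicate 3 or EV replicate 1 (0.34 to 0.37, adjusted p 0.0607 to 0.0646). Of 11 peroxisomal partners with a value on the average, 7 were higher and 2 lower, beside 36.5% and 28% of all genes, and the median was 0.30 for the list and 0.09 over all genes tested. CRAT, carnitine acetyltransferase, was among those higher (0.67 ± 0.05). PEX3 and PEX5, factors of peroxisome assembly, were the 2 lower (-0.29 ± 0.07 and -0.17 ± 0.04).

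Across the family, 28 of 30 tested members were called in at least 1 line, as were 78% of all genes, and the exceptions were ABCA12 and ABCF3. A change of at least 2-fold upwards was called in some line for 14 members (25% of all genes), of which ABCA9, ABCA10, ABCB1 and ABCB4 owed their test to IRF4 libraries, which leaves 10, and downwards for 3 (11.1%), which were ABCB6 and ABCE1 in H929 and ABCG2 in OPM2. ABCA3, ABCA5, ABCB6, ABCB9, ABCC4, ABCD2 and ABCG2 were called higher in some line and lower in another, 7 of 30 beside 8.07% of all genes. The guide effect differed between lines for 19 of 30 members, beside 48% of all genes.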

How the data were processed

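The deposited files hold, from the authors, raw counts by Entrez gene of 23 libraries and, for 16220 genes, log2 RPKM values. Per the labels' protocols, total RNA went into a TruSeq RNA kit. Per the submitters' processing notes, Subread, featureCounts and limma were used on GRCh38 (hg38); the sources used here give no versions, settings or strand. Counts were fitted in R 4.3.3 with edgeR 4.0.16: filterByExpr by group (16468 genes), TMM scaling, 1 mean for each group, a robust quasi-likelihood fit over all groups and Benjamini-Hochberg adjustment within each contrast over all genes. An average needs counts in every line (14927 genes). Errors are SE for changes and SD for levels. Levels are TMM-scaled CPM; levels between genes use the deposited log2 RPKM, taken to linear RPKM. Intervals and floors (3 counts over a group) cover counting error only. Rows without a symbol, 490, stayed in the fit. The fit was tested on simulated data. Alternatives used DESeq2 1.42.0 and limma 3.58.1 among others.

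The members and lists were chosen with earlier results of these data known. Some genes are not reported here. Otherwise full values go to ABCB1, ABCC1 and ABCG2, members called alike in 4 lines, the 3 smallest p in each subfamily, the 8 smallest p between lines, the 5 highest in EV RPKM, and those called at 2-fold or more. All 46 genes matched a RefSeq table (GRCh38.p14) by gene ID.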

Additional observations from a re-analysis of the deposited data

Results flagged for a closer look

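The guide effect differed between the 4 lines, by edgeR's F test with 3 degrees of freedom and adjustment over all genes, for 19 of the 30 tested ABC genes, beside 48% of all genes. The adjusted p was 6.72e-14 for ABCD2, 2.81e-09 for ABCC4, 6.01e-08 for ABCB6, 1.89e-07 for ABCA3 and 1.95e-07 for ABCG2, all called in opposite directions in different lines. It was 0.000678 for ABCA5 and 0.00178 for ABCB9, also called both ways. Among genes lower in at least 1 line and higher in none it was 5.18e-06 for ABCF2, 2.79e-05 for ABCE1, 5.19e-05 for ABCC1, 0.00204 for ABCD3 and 0.00353 for ABCB10. Among genes higher in at least 1 line and lower in none it was 3.70e-06 for ABCA2, 0.00013 for ABCC10, 0.00248 for ABCC5, 0.00408 for ABCA7, 0.00672 for ABCG1, 0.0121 for ABCB8 and 0.0347 for ABCC2. Groups of 2 or 3 libraries were too small for a test of single outlying libraries.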

How the results depend on the processing

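Of 91 called effects of single ABC genes (lines and average), none changed sign under 8 other settings or without any of the 23 libraries. In all, 68 kept their call in every alternative that tested them and 23 lost it in at least 1, 17 of them without a library. Of the counts of called members, the number higher in MM1S (8) moved most, to 5 with each line alone and to as many as 9 without a library. It fell without MM1S EV replicate 2 or 3. Those fits left 1 EV library in MM1S and also changed the filter on low counts, so calls lost in them are hard to read. The other counts stayed within 1.5 times their value. Calls lost numbered 13 on the deposited log2 RPKM, 6 with DESeq2, 3 with each line alone, and 2 each with RLE size factors, with no filter and with a filter at 1 CPM in 3 libraries; the cause was not tested. Uncalled values changed sign 133 times and stayed uncalled. Deviations of same-numbered libraries of a line correlated positively but weakly (0.03 to 0.18 over 11 pairs). Above 0.1 were all 3 pairs in OPM2, 2 of 3 in H929, 1 of 3 in RPMI-8226 and 0 of 2 in MM1S. Every library with a same-numbered partner correlated best with its own number in its line. Deviations are from group means, so these matches are not independent, and the 2 EV libraries of MM1S mirror each other. The matches are a weak hint from the data that the numbers pair libraries, which the labels do not state. A replicate block shared by the lines lost 2 calls (ABCA7 in MM1S, ABCG2 in H929) and gained 8. A block within each line lost 4 (ABCG2 in H929 and MM1S, ABCC10 in MM1S, ABCB1 on the average) and gained 10; in OPM2 it lost none and gained ABCG1. The block within lines gave no test of EV levels. Genes at a few counts, ABCB1 and ABCG2 in MM1S above all, are limited by depth.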
